A study of Mus musculus with 9 samples.

Results

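The genes described here are 31 mouse genes of the red cell lineage, listed by symbol: globins, the erythropoietin receptor, proteins of the red cell membrane and its skeleton, cytosolic enzymes, maturation factors and genes of iron handling. Enzymes of heme synthesis and transcription factors are not among them. Of the 31, 29 were measured among 18193 genes, each through the brightest, by its mean over the 9 arrays, of the probe sets annotated to that gene alone. Ftl1, the ferritin light chain gene, and Trim58, a ubiquitin ligase gene, had no probe set annotated to them alone and were not analysed here. The cells were L8057, a mouse megakaryocytic leukaemia line, in 3 groups of 3 arrays each: lentiviral short hairpin RNA against CBFb (CBFb_KD), short hairpin RNA against Ring1b (Ring1b_KD) and an empty vector (Control). At 48 h after infection all groups received puromycin and, as phorbol ester, 50 nM TPA, and RNA was harvested 72 h later, at 3 days of TPA, so no group shows the cells without TPA. The labels call the arrays biological triplicates without saying whether infections were separate, so the p-values reflect array-to-array spread, which may be technical. How many hairpins or clones a knockdown stands for is not given in the sources used here.

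Red cell precursors survive through erythropoietin and its receptor, fill with globin tetramers and build a spectrin skeleton that ankyrin and protein 4.2 tie to the anion exchanger band 3. Their iron enters as transferrin bound to the transferrin receptor, is reduced in the endosome by Steap3, leaves it through the transporter encoded by Slc11a2 and reaches mitochondria through the carrier encoded by Slc25a37. Megakaryocytes arise from a progenitor shared with red cells, and immature cells of both lineages hold some transcripts of the other. CBFb is the partner that stabilises RUNX proteins on DNA, and Ring1b, encoded by Rnf2, is the ubiquitin ligase of Polycomb repressive complex 1.

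All values are log2 probe set signals after quantile normalization between arrays, and a difference of 1 is a doubling. Signals of different genes come from different probes and are not set against each other. Tests were made with limma, and a gene counts as called where its Benjamini-Hochberg adjusted p over the 18193 genes was under 0.05. The targeted transcripts matched their labels: Cbfb was 9.02-fold lower in CBFb_KD than in Control (log2 difference -3.17, SE 0.0847, limma adjusted p = 3.28e-10), and Rnf2 was 3.17-fold lower in Ring1b_KD (log2 difference -1.67, SE 0.077, limma adjusted p = 3.31e-07). Arrays of 1 group correlated at 0.9947 to 0.9974 over all probe sets other than controls, and arrays of different groups at 0.9862 to 0.9936. A gene whose mean over the 9 arrays was below 5.95, the 25th percentile of all genes, is called dim here. Of the members, Hba-a1, Hbb-bh1, Aqp1 and Rhag were dim and the other 25 were not.

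With CBFb reduced, 8 of 13 measured genes of the red cell membrane and its skeleton rose and 0 fell, while 3 of 5 iron genes fell and 0 rose. Of those 3 iron genes 1, Steap3, was still called without CBFb_KD replicate 1 or 3, without Control replicate 1 or 2 and with probe sets averaged. Of 28 further iron genes 6 rose and 1 fell. Of those 6, only Tfr2 and Ncoa4 kept the call in each of 15 alternative settings, as did Flvcr1, which fell. Of the 29 measured members 10 were called higher with CBFb reduced than with the empty vector and 4 lower, where 15.4% of all genes were called, 7.78% higher and 7.6% lower. Those higher were Epor, Ank1, Epb42, Add2, Gypc, Rhag, Rhd, Kel, Icam4 and Trim10, and those lower were Car1, Tfrc, Slc11a2 and Steap3. The median log2 difference of the members was 0.22, against -0.01 over all genes. All 3 CBFb_KD arrays lay above all 3 Control arrays for 14 members, where this held for 14.7% of all genes, and below them for 5, where it held for 16.9%; in either direction it held for 31.6% of all genes. With Ring1b reduced 1 member, Gypc, was called higher and 2, Car1 and Ermap, lower, where 12.2% of all genes were called, 5.66% higher and 6.57% lower. The median was -0.01, against 0.01 over all genes. All Ring1b_KD arrays lay above Control for 1 member (16.3% of all genes) and below it for 5 (16.6%), 32.9% of all genes having groups apart. Both comparisons use the same Control arrays.

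**Figure D1:**
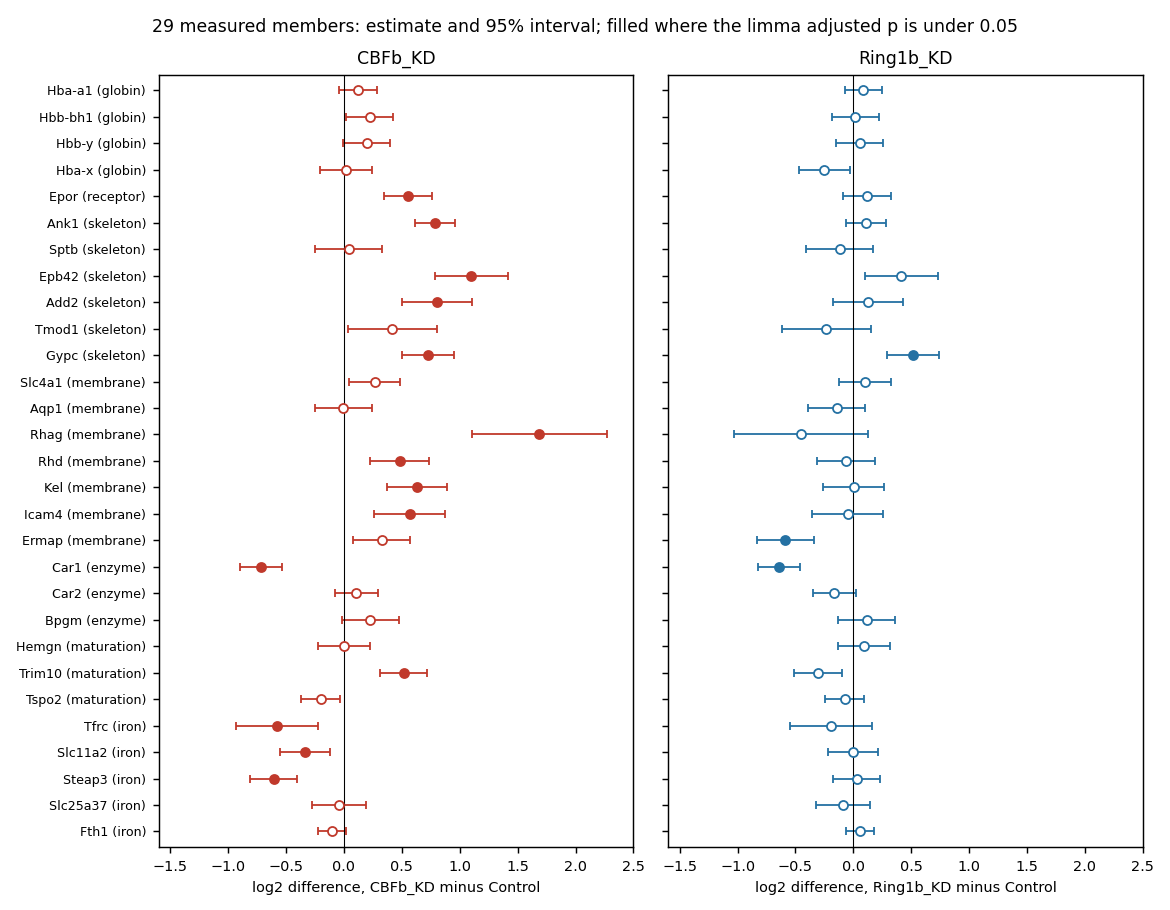
Log2 difference from Control (x axis) of the 29 measured members (rows, with their role) in CBFb_KD on the left and Ring1b_KD on the right. Points are limma estimates over 3 arrays a group, bars are 95% intervals and filled points have a limma adjusted p under 0.05: on the left 10 lie above 0 and 4 below, on the right 1 above and 2 below.

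Promoter sequence of the members that rose together is shown because the 8 of these 10 genes that had a window, all but Ank1 and Gypc, each hold a GATA word. The sequence was picked for this match, so the counts below describe it and do not test it. RefSeq windows on GRCm38.p6, from 250 bases before to 50 bases after a transcript start, were given for 23 of the 31 members, 28 windows in all. The words searched on both strands were, for GATA factors, AGATAA as well as AGATAG, together with TGATAA as well as TGATAG and, for RUNX proteins, TGTGGT as well as TGCGGT. Words of both kinds can overlap at their end bases. A GATA word occurred in 29.8% of all 32851 windows and in 17 of the 28 member windows. It occurred in 8 of 8 windows of members called higher in CBFb_KD, in 1 of 6 of those called lower, all windows of Tfrc or Steap3, and in 7 of 12 of measured members not called. In 5 of the 8 the word began within the last 60 bases before the start, which held for 7 of the 28 member windows and 6.43% of all windows. The member windows outside the 8 were those of Hemgn, not called, and a window of Steap3, called lower. This stretch was chosen after the positions were seen. Counted by gene, a GATA word occurred in 8 of 8 genes called higher, 1 of 2 called lower and 7 of 11 not called. No share over all genes was counted in this way. A RUNX word occurred in 22.4% of all windows, in 3 of the 8 windows of genes called higher, 2 of 6 of those called lower (1 each of Tfrc and Steap3) and 3 of 12 of those not called. A match is a string of letters and not a measured binding site. The windows of Epor, Rhag, Kel, Epb42 and Trim10 follow, 5′ to 3′ on the strand of the gene, with both kinds of word in capitals. Words on the other strand appear as their reverse complement, so that TTATCT is a GATA word and ACCACA a RUNX word.
Epor (GRCm38.p6, chr9:21963527-21963826, minus strand): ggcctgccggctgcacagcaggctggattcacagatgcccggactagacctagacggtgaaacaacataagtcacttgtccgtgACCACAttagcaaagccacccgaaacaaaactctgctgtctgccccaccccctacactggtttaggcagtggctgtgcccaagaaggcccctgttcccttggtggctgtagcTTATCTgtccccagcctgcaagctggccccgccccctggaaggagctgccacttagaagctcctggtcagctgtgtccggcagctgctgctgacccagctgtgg
Rhag (GRCm38.p6, chr17:40810899-40811198, plus strand): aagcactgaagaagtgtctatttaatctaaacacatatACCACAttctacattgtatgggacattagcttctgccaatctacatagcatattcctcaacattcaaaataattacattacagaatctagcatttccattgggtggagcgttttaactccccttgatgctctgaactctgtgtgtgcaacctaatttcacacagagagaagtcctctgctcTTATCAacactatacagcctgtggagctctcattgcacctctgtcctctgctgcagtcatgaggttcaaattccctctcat
Kel (GRCm38.p6, chr6:41704276-41704575, minus strand): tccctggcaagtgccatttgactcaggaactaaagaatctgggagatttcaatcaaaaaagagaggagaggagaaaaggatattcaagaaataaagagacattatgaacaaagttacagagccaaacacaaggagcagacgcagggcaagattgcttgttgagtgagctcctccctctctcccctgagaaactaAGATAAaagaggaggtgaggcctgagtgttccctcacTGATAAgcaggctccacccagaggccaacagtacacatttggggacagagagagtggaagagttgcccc
Epb42 (GRCm38.p6, chr2:121036828-121037127, minus strand): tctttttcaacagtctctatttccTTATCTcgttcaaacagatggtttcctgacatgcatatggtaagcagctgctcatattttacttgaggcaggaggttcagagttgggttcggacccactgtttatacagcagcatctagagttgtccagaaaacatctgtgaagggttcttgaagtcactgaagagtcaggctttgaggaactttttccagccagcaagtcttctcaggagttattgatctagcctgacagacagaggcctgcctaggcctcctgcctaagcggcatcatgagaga
Trim10 (GRCm38.p6, chr17:36869324-36869623, plus strand): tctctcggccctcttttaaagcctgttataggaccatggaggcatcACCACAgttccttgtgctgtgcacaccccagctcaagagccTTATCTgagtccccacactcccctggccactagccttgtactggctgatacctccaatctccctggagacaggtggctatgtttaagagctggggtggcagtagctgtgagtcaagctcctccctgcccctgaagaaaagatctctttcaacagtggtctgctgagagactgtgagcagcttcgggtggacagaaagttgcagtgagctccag
Counted from the first base before the start as -1, the GATA words begin at -54 in Epor, -31 in Rhag, -56 and -19 in Kel, -226 in Epb42 and -163 in Trim10. The RUNX words begin at -166 in Epor, -212 in Rhag and -204 in Trim10. Rhd and Icam4, not printed, each hold a GATA word beginning at -43, and Add2, also not printed, holds 1 beginning at -234.

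The 4 globin genes gave low signals in every group, from 5.33 to 6.89, and 0 of 4 were called by limma in either knockdown, with 1 of 4 at an unadjusted p under 0.05 in each. Over all genes 15.4% were called in CBFb_KD and 12.2% in Ring1b_KD. At these shares 0 of 4 does not set the globins apart from other genes. Hba-a1, an adult alpha globin, gave 5.57, 5.49 and 5.52 in CBFb_KD, 5.46, 5.55 and 5.45 in Ring1b_KD and 5.33, 5.36 and 5.52 in Control. Hba-x, the embryonic zeta globin, gave 6.56, 6.89 and 6.61 in CBFb_KD, 6.28, 6.51 and 6.47 in Ring1b_KD and 6.81, 6.60 and 6.60 in Control. Its Ring1b_KD arrays all lay below its Control arrays, which was not called (log2 difference -0.25, limma adjusted p = 0.135). The embryonic beta-like genes Hbb-bh1 and Hbb-y lie in 1 cluster. Hbb-bh1 gave 5.87, 5.89 and 5.64 on the Control arrays, 6.08, 5.98 and 6.002 with CBFb targeted and 5.96, 5.65 and 5.84 with Ring1b targeted. Its CBFb_KD arrays did not overlap the Control arrays, but the difference was not called (0.22, limma adjusted p = 0.147). Hbb-y gave 6.34, 6.09 and 6.32 on the Control arrays, 6.32, 6.48 and 6.53 with CBFb targeted and 6.43, 6.18 and 6.29 with Ring1b targeted, with overlapping groups (0.20, limma adjusted p = 0.225). A pair of dimmer Hbb-y probe sets rose in CBFb_KD when each probe set was tested (0.84, limma adjusted p = 0.0254, and 0.77, limma adjusted p = 0.0123), and the mean of its 3 probe sets passed (0.60, limma adjusted p = 0.0134). Both are of the kind that can bind several transcripts, so which beta-like globin they report is uncertain. Hbb-b2, an adult beta globin outside the 31 genes and also dim, rose (log2 difference 0.35, SE 0.0828, limma adjusted p = 0.0122), though not without Control replicate 3 (0.31, limma adjusted p = 0.0642). Hba-a2, a further alpha globin gene, was not dim and not called (0.11, limma adjusted p = 0.8 in CBFb_KD, and 0.33, limma adjusted p = 0.257 in Ring1b_KD). Of 10 globin and globin chaperone symbols listed beyond the members, only these 2 had a probe set annotated to them alone. Hbb-b1, Hbb-bs, Hbb-bt and Ahsp had none, so the globins measured do not stand for all globin transcripts.

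Epor, the receptor that carries the erythropoietin signal, was 1.47-fold higher in CBFb_KD than in Control. Its values were 11.56, 11.32 and 11.38 in CBFb_KD, 11.11, 10.92 and 10.92 in Ring1b_KD and 11.04, 10.78 and 10.78 in Control. Every CBFb_KD array lay above every array of the other groups, while Ring1b_KD and Control overlapped. The difference from Control was called (log2 difference 0.55, SE 0.0959, limma adjusted p = 0.00164), and so was that from Ring1b_KD (log2 difference 0.44, SE 0.0959, limma adjusted p = 0.0066). In Ring1b_KD the difference from Control was 0.12 (limma adjusted p = 0.482, 95% interval -0.09 to 0.32).

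Of the 6 genes of the membrane skeleton and its anchors 4 rose and 0 fell in CBFb_KD, where 7.78% of all genes rose and 7.6% fell. Ank1, erythroid ankyrin, gave 10.29, 10.24 and 10.26 in CBFb_KD, 9.51, 9.59 and 9.65 in Ring1b_KD and 9.59, 9.38 and 9.45 in Control. The CBFb_KD arrays lay within 0.05 of each other and above all others, and the gene was 1.73-fold higher than in Control (log2 difference 0.79, SE 0.0795, limma adjusted p = 4.21e-05). In Ring1b_KD its difference from Control was 0.11, with a 95% interval of -0.06 to 0.28. Of its other probe sets 2 rose with CBFb reduced (0.78, limma adjusted p = 0.000875, and 1.01, limma adjusted p = 0.00649) and the third did not pass (-0.20, limma adjusted p = 0.135). Epb42, protein 4.2, which joins ankyrin to band 3, gave 8.38, 8.89 and 8.78 in CBFb_KD, 8.13, 8.11 and 7.75 in Ring1b_KD and 7.78, 7.61 and 7.36 in Control. It was 2.14-fold higher in CBFb_KD (log2 difference 1.10, SE 0.146, limma adjusted p = 0.000292), and its other probe set rose as well (1.44, limma adjusted p = 2e-04). In Ring1b_KD its arrays overlapped with Control and the difference missed the threshold (0.41, limma adjusted p = 0.0855), though it passed without Ring1b_KD replicate 3 (0.54, limma adjusted p = 0.0381) or CBFb_KD replicate 1 (0.41, limma adjusted p = 0.0491).

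Add2, beta adducin, which joins spectrin to actin, gave 9.07, 8.60 and 9.18 in CBFb_KD, 8.25, 8.38 and 8.18 in Ring1b_KD and 7.98, 8.11 and 8.35 in Control. It was 1.75-fold higher in CBFb_KD, whose arrays overlapped with neither other group (log2 difference 0.81, SE 0.14, limma adjusted p = 0.00167), and 2 of its 4 other probe sets were called higher too, with the remaining ones at log2 differences of 0.51 and 0.71. Gypc, glycophorin C, which anchors the skeleton through protein 4.1, was the member called higher in both knockdowns. Its values were 10.45, 10.26 and 10.38 in CBFb_KD, 10.30, 10.21 and 9.95 in Ring1b_KD and 9.70, 9.48 and 9.73 in Control. Both knockdowns lay wholly above Control and overlapped each other. The rise was 1.65-fold in CBFb_KD (log2 difference 0.73, SE 0.103, limma adjusted p = 0.000466) and 1.43-fold in Ring1b_KD (log2 difference 0.52, SE 0.103, limma adjusted p = 0.00667), and the call in Ring1b_KD was lost with median-centred arrays (0.33, limma adjusted p = 0.0688). Tmod1, which caps the pointed ends of actin filaments, gave 8.89, 8.65 and 8.80 in CBFb_KD, 8.52, 8.26 and 7.60 in Ring1b_KD and 8.35, 8.24 and 8.50 in Control. Ring1b_KD replicate 3 stood apart from its group, and CBFb_KD against Control was not called with it (0.42, limma adjusted p = 0.156) but was called without it (0.42, limma adjusted p = 0.0138). Sptb, erythroid beta spectrin, had overlapping groups and was not called (0.04, limma adjusted p = 0.908). Its other probe set rose (0.48, limma adjusted p = 0.0109), and the mean of both passed (0.26, limma adjusted p = 0.0402).

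**Figure D2:**
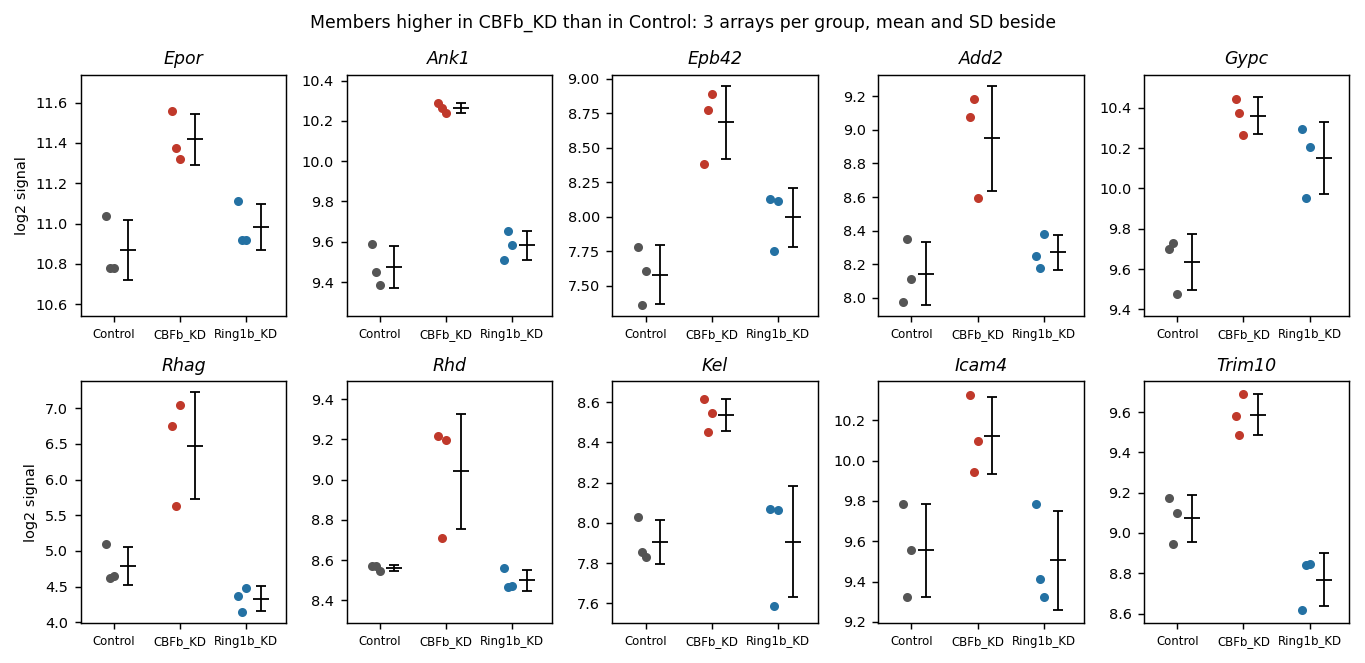
Log2 signal (y axis, a separate range in each panel that does not start at 0) of the 10 members called higher in CBFb_KD, with 1 dot an array and, beside the dots, the mean and SD of 3 arrays. In all 10 panels the CBFb_KD dots lie above the Control dots; for Gypc the Ring1b_KD dots do as well.

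Among the 7 transporters and blood group proteins of the membrane 4 rose and 0 fell in CBFb_KD, and 0 rose and 1 fell in Ring1b_KD. Over all genes 7.78% rose and 7.6% fell in CBFb_KD. The 14.3% of the 7 called in Ring1b_KD is close to the 12.2% of all genes. Without CBFb_KD replicate 1 the number that rose in CBFb_KD was 2. Rhag, the Rh-associated glycoprotein that the Rh antigens need at the surface, was dim, and its signal was not shown to be above background in Control or Ring1b_KD, so no fold is given. Its values were 6.76, 7.04 and 5.63 in CBFb_KD, 4.37, 4.49 and 4.14 in Ring1b_KD and 5.09, 4.66 and 4.62 in Control. All Ring1b_KD and Control arrays lay below the limit for dim genes, and 2 of the 3 CBFb_KD arrays lay above it. The rise was called (log2 difference 1.69, SE 0.268, limma adjusted p = 0.000919). Every Ring1b_KD array lay below every Control array, a difference that was not called (-0.45, limma adjusted p = 0.308) but passed without CBFb_KD replicate 3 (-0.45, limma adjusted p = 0.0495). Rhd, the Rh antigen itself, gave 9.22, 9.20 and 8.71 in CBFb_KD, 8.56, 8.47 and 8.47 in Ring1b_KD and 8.57, 8.55 and 8.57 in Control. It was 1.39-fold higher in CBFb_KD (log2 difference 0.48, SE 0.117, limma adjusted p = 0.0133), though not without CBFb_KD replicate 1 (0.39, limma adjusted p = 0.0509) or 2 (0.40, limma adjusted p = 0.0653).

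Kel, the Kell antigen and an endopeptidase, gave 8.61, 8.54 and 8.45 in CBFb_KD, 8.07, 8.06 and 7.59 in Ring1b_KD and 8.03, 7.83 and 7.86 in Control. It was 1.55-fold higher in CBFb_KD, with no overlap with either group (log2 difference 0.63, SE 0.121, limma adjusted p = 0.00313). In Ring1b_KD its difference from Control was 0.00, with a 95% interval of -0.26 to 0.26. Icam4, an adhesion glycoprotein of the Landsteiner-Wiener blood group, gave 10.33, 10.10 and 9.95 in CBFb_KD, 9.79, 9.32 and 9.41 in Ring1b_KD and 9.79, 9.56 and 9.32 in Control. It was 1.48-fold higher (log2 difference 0.57, SE 0.142, limma adjusted p = 0.0156), though not without CBFb_KD replicate 1 (0.47, limma adjusted p = 0.0621) or Control replicate 3 (0.45, limma adjusted p = 0.0825).

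Ermap, an erythroid adhesion protein of the Scianna blood group, was the 1 of these 7 genes called in Ring1b_KD. Its values were 10.68, 10.84 and 10.56 in CBFb_KD, 9.77, 9.61 and 9.97 in Ring1b_KD and 10.55, 10.22 and 10.34 in Control. The 3 groups did not overlap, with CBFb_KD above Control and Ring1b_KD below it. The fall in Ring1b_KD was 1.5-fold (log2 difference -0.59, SE 0.113, limma adjusted p = 0.00538). The difference of CBFb_KD from Control missed the threshold (0.32, limma adjusted p = 0.0751) and passed without Control replicate 1 (0.41, limma adjusted p = 0.0466) or Ring1b_KD replicate 3 (0.32, limma adjusted p = 0.049). Slc4a1, band 3, was not called in CBFb_KD, where its 3 arrays of 6.45, 6.27 and 6.25 lay above Control's 6.09, 6.06 and 6.02 (0.27, limma adjusted p = 0.109). It passed without Ring1b_KD replicate 1 (0.27, limma adjusted p = 0.0367), as did its difference from Ring1b_KD (0.29, limma adjusted p = 0.0406). Aqp1, the water channel, was dim throughout, at 5.01 to 5.50, and was not called in either knockdown.

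Of the 3 cytosolic enzymes Car1 fell in both knockdowns. Carbonic anhydrase 1, which hydrates carbon dioxide, gave 12.68, 12.63 and 12.52 in CBFb_KD, 12.83, 12.69 and 12.56 in Ring1b_KD and 13.46, 13.33 and 13.20 in Control. Each knockdown lay wholly below Control, and they overlapped each other. The fall was 1.65-fold in CBFb_KD (log2 difference -0.72, SE 0.0837, limma adjusted p = 0.000118) and 1.56-fold in Ring1b_KD (log2 difference -0.64, SE 0.0837, limma adjusted p = 0.000493), and the knockdowns differed by -0.08 (limma adjusted p = 0.572). Car2, the other carbonic anhydrase, gave 14.03, 14.14 and 13.88 in CBFb_KD, 13.88, 13.72 and 13.64 in Ring1b_KD and 14.00, 13.98 and 13.75 in Control. It was called in neither knockdown against Control (0.11 in CBFb_KD and -0.16 in Ring1b_KD). Bpgm, which makes the 2,3-bisphosphoglycerate that lowers the oxygen affinity of hemoglobin, was not called either (0.23, limma adjusted p = 0.25 in CBFb_KD). Its other probe sets were higher in CBFb_KD (0.36, limma adjusted p = 0.0372, and 0.47, limma adjusted p = 0.0264), and the mean of all 3 passed (0.35, limma adjusted p = 0.04).

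Of the 3 measured maturation factors Trim10 rose in CBFb_KD. Trim10, a RING finger protein of terminal red cell differentiation, gave 9.58, 9.69 and 9.49 in CBFb_KD, 8.62, 8.85 and 8.84 in Ring1b_KD and 9.17, 9.10 and 8.94 in Control. As for Ermap, the groups did not overlap and Control lay between the knockdowns. The rise in CBFb_KD was 1.43-fold (log2 difference 0.51, SE 0.095, limma adjusted p = 0.00249). The difference in Ring1b_KD missed the threshold (-0.31, limma adjusted p = 0.0544) but passed with the values as deposited (-0.38, limma adjusted p = 0.0194) and with median-centred arrays (-0.46, limma adjusted p = 0.006). Hemgn, a nuclear protein of blood progenitors, lay at 10.74 to 11.20 over all arrays (95% interval of the difference -0.23 to 0.23 in CBFb_KD and -0.14 to 0.32 in Ring1b_KD). Tspo2, an erythroid relative of the mitochondrial translocator protein, lay at 8.04 to 8.38 (-0.20, limma adjusted p = 0.113 in CBFb_KD).

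Of the 5 measured iron genes 3 fell in CBFb_KD and 0 rose, and none of the 5 was called in Ring1b_KD, where 0 had an unadjusted limma p under 0.05. Over all genes 7.78% rose and 7.6% fell in CBFb_KD, and 12.2% were called in Ring1b_KD. At that share 0 of 5 in Ring1b_KD does not set these genes apart. The 3 genes that fell in CBFb_KD encode successive steps of the transferrin cycle. Steap3, the endosomal ferrireductase, gave 9.06, 9.07 and 9.16 in CBFb_KD, 9.78, 9.52 and 9.90 in Ring1b_KD and 9.68, 9.74 and 9.69 in Control. Its CBFb_KD arrays lay below all others, 1.52-fold lower than Control (log2 difference -0.61, SE 0.0939, limma adjusted p = 0.000778), and both of its other probe sets fell as well (-0.77, limma adjusted p = 0.00168, and -0.87, limma adjusted p = 0.000273). In Ring1b_KD the difference was 0.03, with a 95% interval of -0.17 to 0.23.

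Tfrc, the transferrin receptor, gave 11.15, 11.26 and 10.81 in CBFb_KD, 11.36, 11.20 and 11.79 in Ring1b_KD and 11.77, 11.83 and 11.33 in Control. It was 1.49-fold lower in CBFb_KD (log2 difference -0.58, SE 0.164, limma adjusted p = 0.0308), with no overlap with Control. The call was lost without CBFb_KD replicate 1 (-0.62, limma adjusted p = 0.0506) or 3 (-0.44, limma adjusted p = 0.134) and without Control replicate 1 (-0.51, limma adjusted p = 0.114) or 2 (-0.48, limma adjusted p = 0.13). Its other probe sets were lower by similar amounts and not called (-0.60, limma adjusted p = 0.15, and -0.49, limma adjusted p = 0.291). The array also carries control probe sets for both ends of this transcript, and the 3' end exceeded the 5' end by 1.29 ± 0.15 (SD, n = 3, log2 as deposited) in CBFb_KD, 1.24 ± 0.11 in Ring1b_KD and 1.49 ± 0.10 in Control; the part of this gap in the Tfrc result was not tested.

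Slc11a2, the divalent metal transporter, gave 8.96, 8.90 and 8.97 in CBFb_KD, 9.12, 9.19 and 9.50 in Ring1b_KD and 9.37, 9.24 and 9.22 in Control. The CBFb_KD arrays lay below all others. The gene was 1.26-fold lower in CBFb_KD (log2 difference -0.33, SE 0.0996, limma adjusted p = 0.038). That call stood close to the threshold and was lost when any of the 6 CBFb_KD and Control arrays was left out, with log2 differences of -0.36 to -0.29 (limma adjusted p = 0.0676 to 0.144). It was also lost when p was adjusted over all probe sets (limma adjusted p = 0.0539). Tested so, its other probe sets were lower and not called (-0.26, limma adjusted p = 0.227, -0.24, limma adjusted p = 0.128, and -0.17, limma adjusted p = 0.523). Slc25a37, mitoferrin, lay at 8.12 to 8.59 with overlapping groups (-0.05, limma adjusted p = 0.865 in CBFb_KD). Fth1, the ferritin heavy chain of iron storage, lay at 14.14 to 14.41 (-0.10, limma adjusted p = 0.291 in CBFb_KD, 95% interval -0.22 to 0.02), near the top of the array's range.

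**Figure D3:**
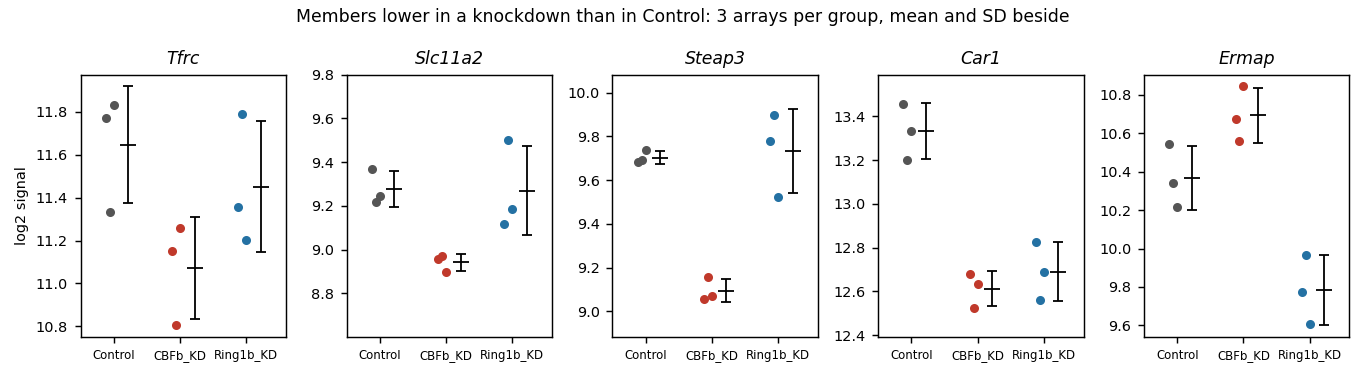
Log2 signal (y axis, a separate range in each panel that does not start at 0) of the 5 members called lower in a knockdown, with 1 dot an array and, beside the dots, the mean and SD of 3 arrays. Tfrc, Slc11a2 and Steap3 were called lower in CBFb_KD, Ermap in Ring1b_KD, and Car1 in both.

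The knockdowns were also tested against each other, which asks whether their effects differed. In CBFb_KD 12 of 29 members were higher than in Ring1b_KD and 2 lower, where 19.4% of all genes were called, 10.1% higher and 9.31% lower. Groups lay apart with CBFb_KD above for 14 members (16.2% of all genes) and below for 4 (17.6%), 33.8% of all genes lying apart in either direction. The median difference of the members was 0.21, against -0.02 over all genes. Skeleton genes accounted for 4 of the higher members, namely Ank1 (0.68, limma adjusted p = 8.89e-05), Epb42 (0.69, limma adjusted p = 0.00547), Add2 (0.68, limma adjusted p = 0.0045) and Tmod1 (0.65, limma adjusted p = 0.0216). Tmod1 lost its call without CBFb_KD replicate 1 (0.60, limma adjusted p = 0.0644) or 3 (0.64, limma adjusted p = 0.0633). Membrane proteins accounted for 5, with the dim Rhag higher (log2 difference 2.14, SE 0.268, limma adjusted p = 0.000139), Ermap 1.88-fold higher (log2 difference 0.91, SE 0.113, limma adjusted p = 0.000131) and Rhd, Kel and Icam4 at log2 differences of 0.54, 0.63 and 0.62. Epor, Trim10 (0.82, limma adjusted p = 8.45e-05) and Car2 (0.27, limma adjusted p = 0.0427) were the others. The call of Car2 stood at the threshold and was lost without CBFb_KD replicate 1 or 2, Ring1b_KD replicate 2 or 3, or Control replicate 1 or 2, with log2 differences of 0.21 to 0.27 (limma adjusted p = 0.0531 to 0.16). Those lower in CBFb_KD than in Ring1b_KD were Steap3 (-0.64, limma adjusted p = 0.000455) and Slc11a2 (-0.33, limma adjusted p = 0.0357), the latter not without CBFb_KD replicate 1, 2 or 3, Ring1b_KD replicate 3 or Control replicate 2 (-0.34 to -0.21, limma adjusted p = 0.0527 to 0.12), nor with the values as deposited (-0.22, limma adjusted p = 0.13) or median-centred arrays (-0.14, limma adjusted p = 0.383). For Car1 and Tfrc (-0.38, limma adjusted p = 0.13) the difference between the knockdowns missed the threshold. For Gypc it did as well (0.21, limma adjusted p = 0.184), but it passed with median-centred arrays (0.40, limma adjusted p = 0.0247).

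The scaling of the arrays bears on directions in Ring1b_KD. Over all genes 1029 were called higher and 1196 lower there after quantile normalization, 882 and 1709 with the values as deposited, and 352 and 2541 with arrays centred on their medians. For CBFb_KD against Ring1b_KD the same splits were 1843 and 1693, 2118 and 1285, and 2709 and 514. The calls of Car1 and Ermap in Ring1b_KD held under all 3 scalings.

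Other genes of the same pathways were read from 4 further lists, with 64 genes measured. In CBFb_KD 19 of them were called higher and 3 lower, 34.4% of the 64 against 15.4% of all genes, with a median log2 difference of 0.10. In Ring1b_KD 6 were higher and 4 lower, 15.6% against 12.2%, a share close to that of all genes, with a median of 0.07. Of 22 further membrane and skeleton genes 7 rose and 1 fell in CBFb_KD. Of the 7, Slc14a1 (0.38, limma adjusted p = 0.0484) lost its call in 10 of 15 alternative settings. Xk, the partner of the Kell protein, was 1.95-fold higher, at 8.25, 8.66 and 8.39 against 7.59, 7.43 and 7.39 (log2 difference 0.96, SE 0.114, limma adjusted p = 0.000126). Ackr1, the Duffy antigen and a chemokine receptor, was 2.39-fold higher, at 9.88, 9.94 and 10.09 against 8.89, 8.66 and 8.59 (log2 difference 1.26, SE 0.16, limma adjusted p = 0.000211), and Art4, the Dombrock antigen, rose too (0.84, limma adjusted p = 0.000592). The gene that fell was Kcnn4, a calcium-activated potassium channel (-0.42, limma adjusted p = 0.00842). In Ring1b_KD Dmtn, dematin of the spectrin and actin junctions, fell 1.74-fold, from 11.12, 10.99 and 11.29 to 10.40, 10.35 and 10.27 (log2 difference -0.80, SE 0.104, limma adjusted p = 0.000493), and stood at 0.12 in CBFb_KD (limma adjusted p = 0.572). Cd47, the signal that keeps macrophages from engulfing a cell, also fell there (-0.34, limma adjusted p = 0.0191), though not without Ring1b_KD replicate 3 (-0.26, limma adjusted p = 0.0577) or Control replicate 1 (-0.33, limma adjusted p = 0.0595) or 2 (-0.30, limma adjusted p = 0.0906). Xk rose in Ring1b_KD (0.47, limma adjusted p = 0.0168), a rise not called without Ring1b_KD replicate 1 (0.42, limma adjusted p = 0.0633) or 2 (0.44, limma adjusted p = 0.0593) or Control replicate 2 (0.46, limma adjusted p = 0.0651) or 3 (0.43, limma adjusted p = 0.0722). Of 2 further globin genes, Hbb-b2 was called, as given above.

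Among 12 erythropoietin signalling genes 5 rose and 1 fell in CBFb_KD, and 0 were called in Ring1b_KD, with 1 at an unadjusted limma p under 0.05. Of the 5, Jak2 (0.27, limma adjusted p = 0.0371) lost its call in 8 of 15 alternative settings. The values as deposited (0.27, limma adjusted p = 0.0638) and median-centred arrays (0.27, limma adjusted p = 0.121) were among these. Over all genes 7.78% rose and 7.6% fell in CBFb_KD, with 15.4% called in either direction, and 12.2% were called in Ring1b_KD. For 12 genes, each of the 2 shares called in either direction is between 1 and 2. Cish, a feedback inhibitor induced by STAT5, was 2.79-fold higher, at 11.43, 12.24 and 11.44 against 10.33, 10.59 and 9.75 in Control (log2 difference 1.48, SE 0.216, limma adjusted p = 0.000541). The kinase gene Pim1 was 2.19-fold higher (1.13, limma adjusted p = 0.00147), and Bcl2l1, which encodes the survival protein Bcl-xL, 1.81-fold higher (0.86, limma adjusted p = 0.000121). Each of these 3 also exceeded its level in Ring1b_KD, by 1.06 (limma adjusted p = 0.00413), 0.85 (limma adjusted p = 0.00807) and 0.79 (limma adjusted p = 0.000149). All 3 are known targets of other cytokine receptors as well. The gene of this list that fell in CBFb_KD was Kit, the receptor of another ligand, stem cell factor (-0.39, limma adjusted p = 0.0337). Its call was lost without CBFb_KD replicate 2 (-0.39, limma adjusted p = 0.0882) or 3 (-0.33, limma adjusted p = 0.137). The same held without Control replicate 1 (-0.36, limma adjusted p = 0.118) or 2 (-0.34, limma adjusted p = 0.135).

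Of the 28 further iron genes 6 rose and 1 fell in CBFb_KD, and 5 rose and 2 fell in Ring1b_KD. That is 25% called in each, against 15.4% and 12.2% of all genes, with medians of -0.01 and 0.05. Tfr2, the second transferrin receptor and an iron sensor, went the other way from Tfrc, at 9.86, 9.79 and 9.70 in CBFb_KD against 9.16, 9.07 and 8.99 in Control (log2 difference 0.71, SE 0.129, limma adjusted p = 0.0021), and was also higher in Ring1b_KD (0.48, limma adjusted p = 0.0286), a call not kept as deposited, with median-centred arrays or with probe sets averaged, nor without Ring1b_KD replicate 1 or 3 or any 1 Control array (0.30 to 0.52, limma adjusted p = 0.0521 to 0.122). Ncoa4, which delivers ferritin for breakdown, rose in both knockdowns (0.57, limma adjusted p = 0.00307 in CBFb_KD, and 0.54, limma adjusted p = 0.00681 in Ring1b_KD), the latter not with median-centred arrays (0.38, limma adjusted p = 0.0697). The heme exporter gene Flvcr1 fell in CBFb_KD (-0.73, limma adjusted p = 0.0033), and the metal importer gene Slc39a8 rose (0.45, limma adjusted p = 0.0108), though not without CBFb_KD replicate 2 (0.35, limma adjusted p = 0.053) or Control replicate 1 (0.40, limma adjusted p = 0.0536) or 3 (0.42, limma adjusted p = 0.0531). Slc40a1, the iron exporter ferroportin, picked after its value was seen, rose there (0.56, limma adjusted p = 0.0148), though not without CBFb_KD replicate 2 (0.39, limma adjusted p = 0.0581) or Control replicate 3 (0.51, limma adjusted p = 0.0701). Aco1 rose in CBFb_KD as well (0.28, limma adjusted p = 0.0267) but lost its call in 6 of 15 alternative settings. In Ring1b_KD Isca1 and Isca2, of iron-sulfur cluster assembly, rose (0.68, limma adjusted p = 0.00325, and 0.46, limma adjusted p = 0.00249), and Isca2 lost its call in Ring1b_KD with median-centred arrays (0.27, limma adjusted p = 0.106). Isca1 rose in CBFb_KD too (0.46, limma adjusted p = 0.0192), though not with median-centred arrays, with probe sets averaged, or without CBFb_KD replicate 2 or Control replicate 1 or 3 (0.32 to 0.43, limma adjusted p = 0.0662 to 0.0853). In Ring1b_KD Nfs1, the desulfurase that supplies the sulfur, and Glrx5, which hands clusters on, fell (-0.36, limma adjusted p = 0.00611, and -0.26, limma adjusted p = 0.0322), Nfs1 not when its probe sets were averaged (-0.08, limma adjusted p = 0.523) and Glrx5 not without Ring1b_KD replicate 1 or 2 or any 1 Control array (-0.29 to -0.19, limma adjusted p = 0.0537 to 0.142).

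**Figure D4:**
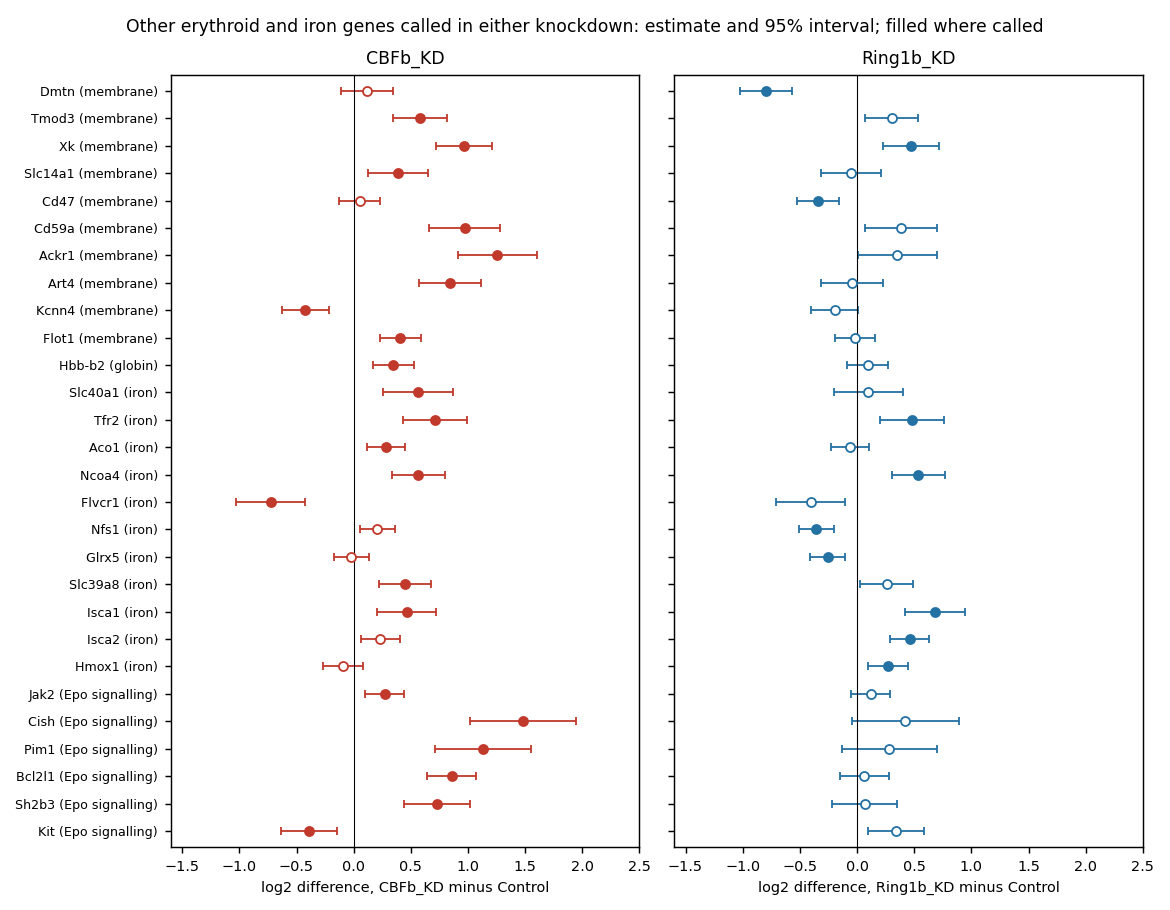
Log2 difference from Control (x axis) of the 28 further erythroid and iron genes called in CBFb_KD (left) or Ring1b_KD (right), with limma estimates over 3 arrays a group, 95% intervals and filled points where called. On the left 19 filled points lie above 0 and 3 below, on the right 6 above and 4 below.

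Markers of other cell types were set beside these results. Over all genes 15.4% were called in CBFb_KD, 7.78% higher and 7.6% lower, and 12.2% were called in Ring1b_KD. Of 14 measured megakaryocyte markers 13 were not dim (Vwf was), and in CBFb_KD 7 were called higher and 0 lower, with a summed signal (linear scale) of 41290 to 42330 against 24260 to 31170 in Control and 19900 to 35620 in Ring1b_KD. Thus 7 markers of the cells' own lineage moved with the membrane genes and 7 were not called. Pf4, the largest signal in that sum, was among those not called (0.32, limma adjusted p = 0.266). The part of the megakaryocyte markers in the results for the membrane genes was not tested. Of 10 granulocyte markers 1 rose and 1 fell in CBFb_KD, with summed signals of 1542 to 1803 against 1807 to 2025 in Control and 1293 to 1661 in Ring1b_KD. Of 8 mast cell markers 1 rose in CBFb_KD, Hdc (1.11, limma adjusted p = 0.00814), and 1 fell, Ms4a2 (-1.92, limma adjusted p = 0.000144). The summed signals of the 8 were 3288 to 3458 in CBFb_KD against 1947 to 3239 in Control, and 2405 to 3706 in Ring1b_KD. By limma 0 of 8 monocyte and macrophage, 0 of 6 lymphocyte and 0 of 7 fibroblast and epithelial markers were called in CBFb_KD, with 1, 0 and 1 at an unadjusted p under 0.05. With 15.4% of all genes called, a count of 0 does not set lists this short apart. The 20% of granulocyte markers called in CBFb_KD is also close to that share. In Ring1b_KD 1 megakaryocyte marker rose and 1 fell, and the mast cell markers Fcer1a (1.61, limma adjusted p = 0.00447) and Hdc (0.99, limma adjusted p = 0.0217) rose while Ms4a2 fell (-1.49, limma adjusted p = 0.00154). Of the granulocyte markers 1 fell there, and of the lymphocyte markers 1 rose. Called in Ring1b_KD were 14.3% of the megakaryocyte, 10% of the granulocyte and 16.7% of the lymphocyte markers, close to the 12.2% of all genes. The part of these markers in the Ring1b_KD results was not tested. In bulk RNA, fewer cells with a transcript and less of it per cell cannot be told apart.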

How the data were processed

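RNA of L8057 cells was measured on 9 arrays, 3 for each of CBFb_KD, Ring1b_KD and Control, and their number limits the precision. The deposited values are log2 probe set signals for 45101 probe sets; the scale was read from their range, 3.227 to 15.355. Which software and normalization the authors used is not stated in the labels. Array medians ran from 6.514 to 6.651, a range of 0.137 in which the Ring1b_KD arrays were highest, so values were quantile normalized with limma 3.58.1 (R 4.3.3); whatever the origin of such a shift, this removes it. Control probe sets (64) were then dropped. Probe sets with 1 symbol in the platform annotation numbered 34945, those with several 932 and those it does not list 9160. Group means were fitted to all 9 arrays with eBayes(trend = TRUE), with two-sided p-values adjusted over 18193 genes. The code was tested on simulated data.

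Members and lists were chosen with earlier results of these data known. Named genes are all members, some further globin genes, up to 3 called genes a further list, direction and comparison by smallest adjusted p, and Cbfb and Rnf2. Aco1, Jak2 and Slc14a1 are named because their calls were lost in several alternative settings. Deviations of same-numbered CBFb_KD and Control arrays correlated at 0.20 to 0.38, a hint of pairing from the data and not from the labels. Differently numbered arrays were not compared in this way. The main fit left out any pairing, and adding a replicate block changed no member's call for CBFb_KD against Control. Alternatives were the scaling, probe set choice, dim filter, variance model, arrays in the fit, replicate block, an exact permutation test and leaving out each array.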

Additional observations from a re-analysis of the deposited data

Results flagged for a closer look

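Of the members, 3 had all CBFb_KD arrays on one side of Control and all Ring1b_KD arrays on the other. The share of all genes with this pattern is not given here, so the count does not set the members apart. Over all genes 31.6% lay apart from Control in CBFb_KD and 32.9% in Ring1b_KD, in either direction. Rhag was above Control in CBFb_KD and below it in Ring1b_KD, and the knockdowns differed by 2.14 (SE 0.268, limma adjusted p = 0.000139), with every Ring1b_KD and Control array below the 25th percentile of genes. Ermap did the same, with a difference of 0.91 (SE 0.113, limma adjusted p = 0.000131), and its fall in Ring1b_KD was called. Trim10 had a difference of 0.82 (SE 0.095, limma adjusted p = 8.45e-05), and its rise in CBFb_KD was called. No member was called in opposite directions in both knockdowns.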

How the results depend on the processing

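Of the 10 members called higher in CBFb_KD, 8 were called under every alternative run other than the permutation test, namely Epor, Ank1, Epb42, Add2, Gypc, Rhag, Kel and Trim10 (Rhag is dim and was not in the fit without dim genes); of the 4 called lower, Car1 and Steap3 were. No member's call changed sign. The count lower in CBFb_KD was 2 when all probe sets of a gene were averaged and 2 to 4 with an array left out. By limma the count higher in Ring1b_KD was 0 with arrays centred on their medians, where 2 had an unadjusted p under 0.05, and 1 to 2 with an array left out. The count lower in CBFb_KD than in Ring1b_KD was 1 with the values as deposited, with median centring, with the mean of probe sets and with only the 2 groups compared, and 1 to 2 with an array left out. The members' median in Ring1b_KD was -0.076 as deposited, -0.16 with median centring and -0.073 with the mean of probe sets, and between the knockdowns it was 0.28 with median centring, 0.27 with the mean of probe sets and 0.20 to 0.28 with an array left out. The cause of these shifts was not tested. Same-numbered arrays of Ring1b_KD and Control correlated at -0.07 to 0.15 and those of the knockdowns at -0.04 to 0.10, which gives little hint of pairing. With the replicate block 10 members were higher and 4 lower in CBFb_KD, 1 and 3 in Ring1b_KD, where Trim10 was added (-0.31, limma adjusted p = 0.0454), and 12 and 3 between the knockdowns, where Fth1 was added (-0.16, limma adjusted p = 0.0371). The exact permutation test of 3 against 3 arrays cannot go below 0.10. Background was not estimated here, and signals near it, as may hold for dim members such as Hba-a1 and Hbb-bh1, limit what differences could be seen.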
